A study of Mus musculus with 66 samples.

Results

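The samples described here are the germ cells of reconstituted mouse ovaries at days 9, 10 and 11 of culture (D9, D10 and D11), and the comparison is D11 against D9 with D10 as the middle point. They make up 9 of the 66 libraries of the series, with 3 libraries per day, and every gene with a mean of at least 1 RPM (reads per 1000000 reads of a library) in any of the 3 days was tested, which gave 15099 of the 24062 genes in the table. The series followed mouse female germ cells in the ovary and in culture by poly(A) RNA sequencing, with an interest in how low oxygen and Foxo3 bear on oocyte dormancy. The culture cells have the strain C57BL/6 X 129/SvJ and are labelled as germ cells on all 3 days. A reconstituted ovary was an aggregate of 5000 cells resembling primordial germ cells, derived from embryonic stem cells and positive for the reporter Blimp1-mVenus, with 75000 thawed gonadal somatic cells of E12.5 embryos. It was grown on a collagen-coated membrane, with 10 µM of the Rock inhibitor Y-27632 for the first 2 days. The labels give no oxygen level, cell number or reporter for the isolation of the D9, D10 and D11 cells, and nothing says whether the 3 libraries of a day came from separate cultures, so p-values measure the spread between these libraries only. Germ cells of E16.5 and E18.5 ovaries carrying a stella-ECFP reporter (strain C57BL/6 x B6D2F1, 3 libraries each) served as the ovarian comparison.

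Female germ cells enter meiosis under STRA8, pair their chromosomes through the synaptonemal complex, and later arrest at the end of prophase as oocytes. A set of oocyte transcription factors, among them NOBOX, FIGLA, SOHLH1 and LHX8, then drives the genes of the growing oocyte. These include the zona pellucida proteins of the egg coat, secreted factors such as GDF9, and the subcortical maternal complex, an assembly under the egg membrane that the early embryo needs. The genes before and after that change of state are therefore the ones followed here by role.

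Promoter sequences were taken from RefSeq on build GRCm38.p6, which matches the mm10 named in the submitters' processing notes. The 250 bases before the start that the RefSeq promoter table lists for the egg coat gene Zp3 and the meiotic entry gene Stra8 are printed as examples of an oocyte and a meiotic gene, with the E-box, the motif that basic helix-loop-helix factors such as FIGLA and SOHLH1 bind. Each reads 5′ to 3′ on the strand of the gene, in lower case, with every E-box (CANNTG, either strand) in capitals. Zp3 lies at chr5:135979855-135980104 and Stra8 at chr6:34920698-34920947, both on the plus strand. The Zp3 window ends just before the annotated gene (chr5:135980105-135988624), while the Stra8 window lies inside its annotated gene (chr6:34920163-34939344).
Zp3: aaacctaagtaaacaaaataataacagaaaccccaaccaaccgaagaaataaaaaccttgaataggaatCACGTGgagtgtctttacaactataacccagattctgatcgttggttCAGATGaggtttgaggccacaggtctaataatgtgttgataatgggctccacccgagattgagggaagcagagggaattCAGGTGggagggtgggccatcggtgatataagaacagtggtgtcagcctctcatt
Stra8: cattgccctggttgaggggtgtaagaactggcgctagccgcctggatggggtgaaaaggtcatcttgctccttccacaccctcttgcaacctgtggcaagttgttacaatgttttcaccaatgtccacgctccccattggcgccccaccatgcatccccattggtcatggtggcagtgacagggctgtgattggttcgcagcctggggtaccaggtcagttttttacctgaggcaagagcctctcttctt
The Zp3 window held 3 E-boxes, which begin 181, 134 and 55 bases before the start, and the Stra8 window held 0. Of all 32851 promoters in the table, 66.2% held at least 1 E-box in a window of this length. Neither window held TAATTG, the type of site that homeodomain factors such as NOBOX bind, or TATAAA, which 7.17% and 12.4% of all promoters held. A match is a stretch of letters only, and no binding was measured.

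Depth ran from 14.68 to 22.28 M reads per library (M, 1000000 reads), and the floor of 3 reads lay between 0.135 and 0.204 RPM. The spread between the libraries of a day widened through the window. The median SD over genes on the log2(RPM + 1) scale was 0.159 at D9, 0.241 at D10 and 0.358 at D11, and Pearson's r between libraries of a day, across genes, was 0.981 to 0.992, 0.968 to 0.972 and 0.930 to 0.955. The E16.5 and E18.5 ovarian libraries had median SDs of 0.172 and 0.156. D11 replicate 3, the shallowest of the 9 libraries, stood farthest from its day. Changes from D9 to D11 that its absence moved by more than 1.5 times are also given without it.

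No gene passed the main test of D11 against D9, limma on log2(RPM + 1) over the 9 libraries with Benjamini-Hochberg adjustment at 0.05 (0 of 15099, or 0%). The smallest adjusted p was 0.0644, shared by 18 genes, and 71 genes that were higher and 9 that were lower had an adjusted p below 0.1. At an unadjusted p below 0.05 the count was 1236 higher (8.19%) and 944 lower (6.25%). On the whole reads recovered from the RPM, edgeR's quasi-likelihood test called 0 and DESeq2 called 509 higher and 77 lower. The same contrast in a limma fit of all 27 libraries of the culture course, D5 to D20, called 894 higher (5.92%) and 310 lower (2.05%). That fit takes its spread from 9 days rather than 3 and has 18 residual degrees of freedom against 6, so its adjusted p is given below as that of the 27-library fit. Other days need not share the wide spread of D11, so p-values of that fit may be too small. Of its calls, 758 of the higher and 281 of the lower genes had D9 and D11 libraries that did not overlap.

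Every D11 library lay above every D9 library for 1596 genes (10.6%), and below for 1700 (11.3%). Large differences were mostly in the upward direction. Among genes with no overlap, 497 were higher by a log2 change of at least 1 and 140 were lower by that much. A log2 change of at least 4 was found in 17 genes upward and in 0 downward. Without D11 replicate 3 the counts were 2217 above (14.7%) and 2233 below (14.8%), with 394 and 68 past a log2 change of 1. Separation of 2 libraries from 3 is easier to reach than of 3 from 3, so the higher counts do not mean a clearer difference. The median gene differed by -0.04 between D11 and D9, and by 0.00 without D11 replicate 3. The filter admits a gene through any 1 of the 3 days. A gene below 1 RPM at D9 thus entered only through a later day, which favours rises in counts of tested members of a list.

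The 10 genes that led in the upward direction were Padi6, Nlrp14, Zp3, Astl, Zp1, Zp2, Oas1c, Npm2, Oas1d and Nlrp5. They were taken as the largest log2 changes among genes with no overlap and a mean of at least 20 RPM on either day. As no gene passed the main test, this choice was made after their values were seen. Their changes ran from 4.46 to 6.06. The 27-library fit called all 10, but it used the same D9 and D11 libraries that chose them, so this is no separate support. Oas1c and Oas1d, of the oligoadenylate synthetase family, are close paralogs whose reads could be split in counting, so their single values are uncertain.

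Padi6, which makes a component of the cytoplasmic lattices of the egg, showed the largest change of the 10. The gene lies at chr4:140727355-140742643 (GRCm38.p6). It stood at 8.63, 53.8 and 23.2 RPM in the 3 D9 libraries (replicates 1, 2 and 3 in this order here and below), at 223, 123 and 475 at D10 and at 803, 1208 and 3930 at D11. The 3 days did not overlap at all. The log2 change from D9 to D11 was 6.06 ± 0.72 (SE), with an adjusted p of 0.064 in the main test and 2.3e-08 in the 27-library fit, and it was 5.40 without D11 replicate 3. The mean was 3.06 RPM at D7 and 27440 at D13, so D9 to D11 held part of a longer climb of this gene. Nlrp14, an oocyte member of the NLRP family at chr7:107113455-107198103, was at 2.65, 5.10 and 4.29 RPM at D9, at 21.7, 15.3 and 89.0 at D10 and at 145, 193 and 878 at D11. Its days did not overlap either, with a log2 change of 5.90 ± 0.72 and a main adjusted p of 0.064.

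**Figure D1:**
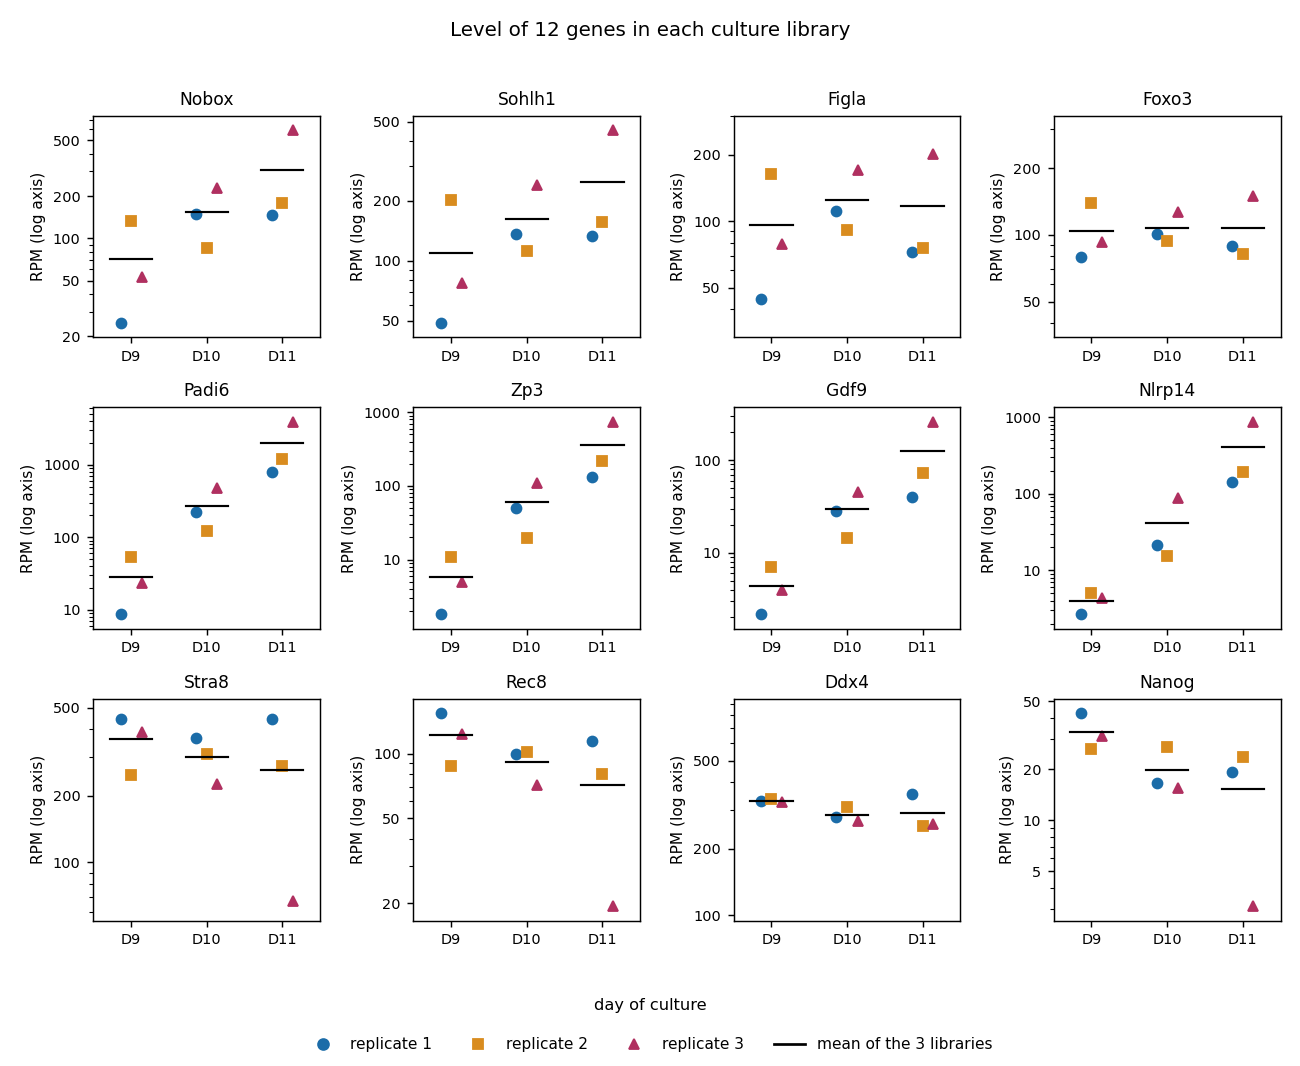
RPM of 12 genes (log axis, scaled separately in each panel) in each culture library by day, with a symbol per replicate number and a bar at the mean of the 3 libraries. Padi6, Zp3 and Nlrp14 are higher on each later day without overlap, Sohlh1, Figla and Foxo3 overlap between days, and D11 replicate 3 (triangle) is the highest point of D11 for all 8 genes of the upper rows and the lowest for Stra8, Rec8 and Nanog.

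All 3 zona pellucida genes, which encode the egg coat, were higher at D11 with no overlap, against 10.6% of all genes. The 27-library fit called all 3 higher, against 5.92% of all genes. Zp3, the gene of the E-box-bearing window shown above, measured 1.81, 10.7 and 4.95 RPM at D9, 49.4, 19.6 and 110 at D10 and 133, 215 and 741 at D11. Its log2 change was 5.58 ± 0.75 (adjusted p = 0.064) and 4.88 without D11 replicate 3. Zp2 had 8.04, 43.3 and 15.4 RPM at D9 and 297, 461 and 1496 at D11, a log2 change of 4.98 ± 0.68. Zp1 had 1.42, 11.5 and 2.59 RPM at D9 and 89.8, 125 and 452 at D11, a log2 change of 5.18 ± 0.77. In both, the lowest D11 library was above the highest D9 library. Astl, which encodes the egg protease that trims the zona, changed by 5.27 ± 0.70 on the same scale, from 0.637, 2.39 and 0.606 RPM to 36.2, 66.1 and 202.

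Of the secreted growth factors, Gdf9 stood apart and Bmp15 did not. Gdf9, a signal of the oocyte to its granulosa cells, at chr11:53430774-53437904, was at 2.16, 6.94 and 3.96 RPM at D9, at 28.2, 14.4 and 45.6 at D10 and at 40.3, 72.2 and 260 at D11. D9 was below both later days, while D10 and D11 overlapped. The log2 change was 4.21 ± 0.64 (adjusted p = 0.064 in the main test, 2.9e-07 in the 27-library fit). Bmp15, its close relative, measured 1.57, 1.5 and 1.65 RPM at D9 and 1.10, 3.83 and 13.9 at D11, so the days overlapped and the log2 change of 1.05 ± 0.57 had an adjusted p of 0.41. Only D11 replicate 3 was well above D9, and without it the change was 0.31. Bmp6 was higher at D11 without overlap, by 1.55 ± 0.42.

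All 7 tested members of the subcortical maternal complex were higher at D11 without overlap, against 10.6% of all genes, and all 7 were called higher in the 27-library fit, against 5.92%, with a median log2 change of 2.89 against -0.04 over all genes, and 2.27 without D11 replicate 3. Nlrp5 (MATER), a founding member, was at 9.95, 48.4 and 21.9 RPM at D9 and at 200, 451 and 1455 at D11, a log2 change of 4.46 ± 0.74 (adjusted p = 0.065). Khdc3 changed by 4.13 ± 0.63 and Ooep by 2.89 ± 0.49. The smallest change of the list, 1.96 ± 0.56, was that of Tle6, which already measured 50.9, 199 and 90.6 RPM at D9 and reached 212, 303 and 866. Of the other oocyte NLRP genes, 7 of the 8 tested were higher without overlap, against 10.6% of all genes, with a median of 1.86. The Nlrp4 genes are near copies of each other, so reads could be split among them in counting and their single values are uncertain. Nlrp4c, named with Nlrp14 for its high mean RPM, was at 11.8, 8.10 and 14.2 RPM at D9 and at 16.8, 26.6 and 48.4 at D11.

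Genes that store or translate maternal RNA were divided. The translation factor Eif4e1b changed by 4.37 ± 0.67, from 0.392, 1.28 and 0.275 RPM to 17.2, 23.3 and 79.5, and Zar1 by 3.56 ± 0.84 and Btg4 by 3.13 ± 0.60. These 3 and Mos, at 1.87 ± 0.54, were the 4 of 12 tested members with no overlap, against 10.6% of all genes. At least Eif4e1b among them had a D9 mean below 1 RPM and passed the filter only through a later day, which favours this count. The list median was 0.62, and 0.29 without D11 replicate 3. The 2 members with the highest means, Ybx2 and Lsm14b, were abundant from the outset and overlapped between days. Ybx2, which packages stored RNA, was at 213, 609 and 302 RPM at D9 and 357, 362 and 901 at D11. The changes were 0.52 ± 0.41 for Ybx2 and 0.72 ± 0.32 for Lsm14b, and 0.08 and 0.36 without D11 replicate 3.

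Of 20 other oocyte growth genes in the table, 12 passed the filter. Of these 12, 8 were higher without overlap, against 10.6% of all genes, and the median was 1.53. Npm2, a chromatin protein of the egg, was at 1.18, 1.94 and 2.31 RPM at D9, at 4.31, 3.25 and 23.2 at D10 and at 41.1, 56.4 and 177 at D11. Its log2 change was 4.77 ± 0.67. H1foo, the oocyte linker histone, changed by 3.53 ± 0.63. Uchl1, with the highest mean of the list, was already at 166, 586 and 291 RPM at D9 and reached 666, 774 and 2207, a log2 change of 1.77 ± 0.52. Kit, the receptor that oocytes need for growth, overlapped between the days, at 397, 794 and 439 RPM against 523, 517 and 1277 (0.44 ± 0.36, adjusted p = 0.56), and its change was 0.01 without D11 replicate 3.

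**Figure D2:**
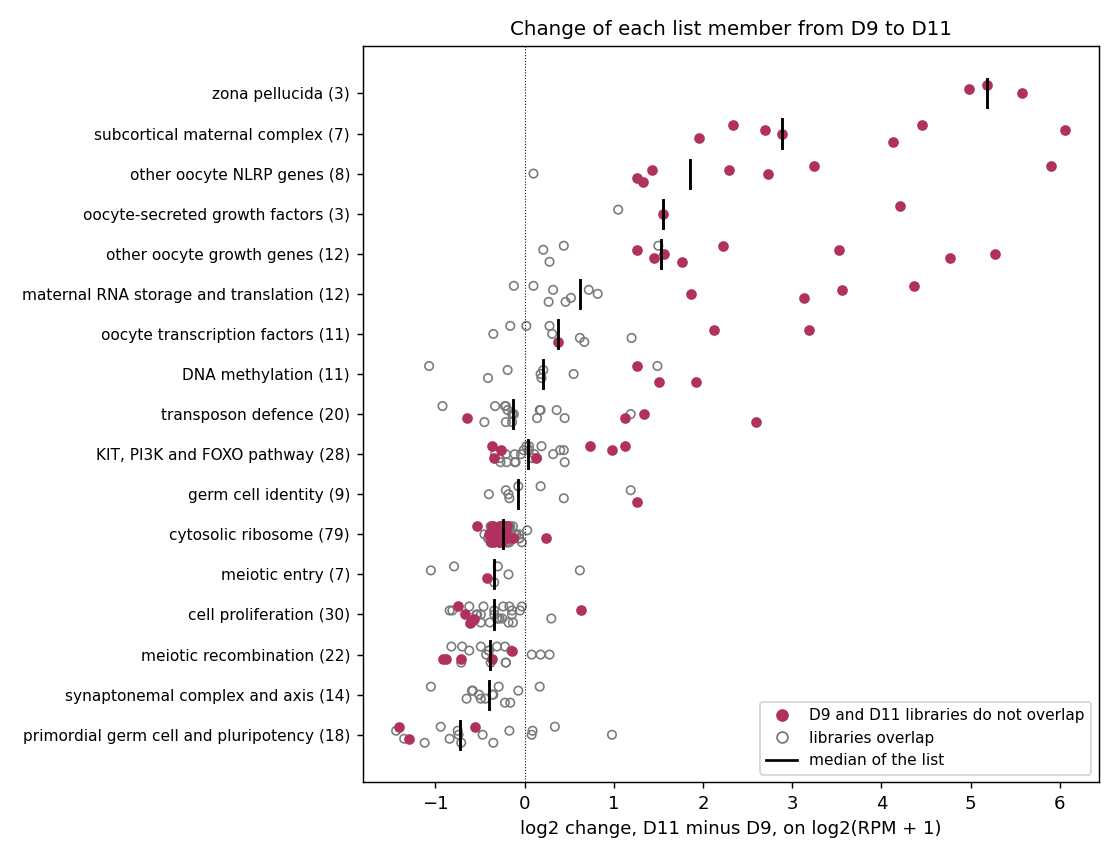
Log2 change from D9 to D11 of every tested member of 17 gene lists (number of members in brackets), with a bar at the list median. Filled points, whose D9 and D11 libraries do not overlap, fill the zona and maternal complex rows at log2 changes of 1.96 to 6.06, while members of the meiotic and proliferation lists are mostly open points between -1.05 and 0.63.

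Among the 11 members of the oocyte transcription factor list, 3 were higher with no overlap (Nobox, Tbpl2 and Dynll1), against 10.6% of all genes. Dynll1 encodes a dynein light chain rather than a transcription factor, and of the 3 only Nobox and Tbpl2 passed a log2 change of 1. The list median was 0.37, and 0.14 without D11 replicate 3. Nobox was at 25.1, 134 and 53.3 RPM at D9, at 149, 85.3 and 230 at D10 and at 147, 179 and 591 at D11. The D11 libraries were all above those of D9, by 2.12 ± 0.64 on the log2 scale (adjusted p = 0.23 in the main test, 0.0021 in the 27-library fit). Tbpl2, the oocyte form of the TATA-binding protein, went from 0.196, 0.555 and 0.330 RPM to 4.25, 9.24 and 34.0, a log2 change of 3.19 ± 0.77. Its D9 libraries were all below 1 RPM, so it passed the filter only through a later day, which favours the count of this list. Figla, in contrast, was at 44.6, 164 and 79.1 RPM at D9 and 72.8, 75.6 and 202 at D11, with D9 replicate 2 above 2 of the 3 D11 libraries. Its change was 0.31 ± 0.49, and -0.17 without D11 replicate 3. Sohlh1 (1.2 ± 0.56) and Lhx8 (0.67 ± 0.53) also overlapped, and without D11 replicate 3 they were at 0.66 and 0.14. The 2 members with the highest means, Stat3 and Sub1, overlapped as well.

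Foxo3, the factor that holds oocytes dormant and the gene of the series' title, did not differ detectably. It was at 79.6, 140 and 92.9 RPM at D9, at 101, 93.9 and 127 at D10 and at 89.1, 81.6 and 150 at D11, a log2 change of 0.02 ± 0.26 (adjusted p = 0.97), and -0.25 without D11 replicate 3. Among 28 genes of the KIT, PI3K and FOXO pathway, 4 were higher without overlap, against 10.6% of all genes, and 3 lower, against 11.3%. Their median was 0.04, and 0.02 without D11 replicate 3. Pik3cd, a catalytic PI3K subunit, changed most, by 1.13 ± 0.36, and by 0.65 without D11 replicate 3. The counts were thus close to the background in either direction. Rps6, a ribosomal protein phosphorylated downstream of PI3K and the member with the highest mean, was at 1456, 1232 and 1378 RPM at D9 and at 1226, 1137 and 818 at D11, 1 of the 3 lower genes, with a change of -0.37 ± 0.15 and of -0.20 without D11 replicate 3.

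Genes of the meiotic programme were mostly lower at D11, by little, and none of the 7 meiotic entry and 14 synaptonemal complex genes was called in any direction by the main or the 27-library fit. Stra8, the switch to meiosis, was at 442, 249 and 388 RPM at D9, at 363, 309 and 225 at D10 and at 446, 273 and 67.0 at D11. D11 replicate 1 was at the level of the highest D9 library while replicate 3 was far below all others, so the change of -0.79 ± 0.56 had an adjusted p of 0.50. Without that library it was -0.00. The cohesin Rec8 had the same order, with 154, 87.9 and 123 RPM at D9 and 114, 79.9 and 19.4 at D11 (-1.05 ± 0.52), and a change of -0.31 without D11 replicate 3.

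Of the 14 synaptonemal complex and axis genes 13 had a negative change, against 8190 of all 15099 genes, and the list median was -0.40. Of the 14, 0 were without overlap, against 10.6% (higher) and 11.3% (lower) of all genes. Sycp3, the axis protein used as a marker of prophase, was at 360, 485 and 421 RPM at D9 and 490, 314 and 410 at D11 (-0.07 ± 0.17). The 2 members with the highest means were the cohesin subunits Smc1b, at -0.29 ± 0.18, and Stag3, at -0.58 ± 0.33, and both were at -0.16 without D11 replicate 3. D11 replicate 1 was the highest D11 library for 13 of the 14, with a summed level of 4294 RPM against 2839 and 2460 in the other two and 3894 to 3947 at D9. The list median without D11 replicate 3 was -0.16.

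Recombination genes gave a median of -0.39 over 22 members, with 5 lower without overlap (against 11.3% of all genes) and 2 called lower by the 27-library fit (against 2.05%). The median was -0.13 without D11 replicate 3. The 2 called genes were Msh4, a factor of crossover formation, and Mei1, which is needed for meiotic breaks. Mei1 was at 47.1, 48.3 and 48.1 RPM at D9 and at 31.4, 25 and 20 at D11, so that every D11 library was below the nearly equal D9 libraries (-0.91 ± 0.23, adjusted p = 0.17 in the main test and 0.030 in the 27-library fit). Msh4 changed by -0.71 ± 0.23. Dmc1, the meiotic recombinase, stayed at 174 and 112 RPM in D11 replicates 1 and 2 and was at 41.3 in replicate 3, against 163, 113 and 162 at D9. Zcwpw1 and Brca2, the highest members, changed by -0.40 ± 0.24 and -0.31 ± 0.20 and overlapped. Without D11 replicate 3 Zcwpw1 was at -0.14, Brca2 at -0.13 and Dmc1 at -0.04, against -0.62 for Dmc1 with it.

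Among the genes that led in the downward direction, chosen in the same way, 8 are given here. They were Foxh1, L1td1, Igdcc3, Ddx58, Nanog, Rhox9, Gcnt2 and Klf5, with log2 changes of -1.77 to -1.34 and main adjusted p-values of 0.26 to 0.37. The 27-library fit called 7 of the 8, all but Gcnt2, again with the D9 and D11 libraries that chose them. Nanog, a core pluripotency factor that early germ cells express, was at 42.5, 26.2 and 31.2 RPM at D9, at 16.6, 26.9 and 15.5 at D10 and at 19.2, 23.6 and 3.13 at D11. All D11 libraries were below those of D9, but replicate 3 alone was far below. The log2 change was -1.41 ± 0.57, and -0.60 without D11 replicate 3. For all 8 genes the change without that library lay between -0.84 and -0.38, so the size of these differences rested on that library.

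Over the 18 members of the early germ cell and pluripotency list the median was -0.72, with 3 lower without overlap (against 11.3% of all genes), and -0.35 without D11 replicate 3. Prdm14, a factor of germ cell specification, changed by -1.30 ± 0.57, and Sox2, a pluripotency factor, by -1.35 ± 0.66 with overlap. Prdm14 was at -0.53 and Sox2 at -0.36 without D11 replicate 3. The 2 members with the highest means were the pluripotency factor Pou5f1 and the RNA-binding protein Lin28a. Neither was lower at D11. Pou5f1 was at 279, 155 and 231 RPM at D9 and 206, 226 and 253 at D11 (0.08 ± 0.20), and Lin28a changed by 0.34 ± 0.18. These changes were 0.01 and 0.16 without D11 replicate 3.

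Of all 15099 genes, 8190 had a negative change. The change was negative for 28 of 30 proliferation genes, with a median of -0.34 and -0.16 without D11 replicate 3. Of these 4 were lower without overlap (against 11.3% of all genes) and 4 were called lower by the 27-library fit (against 2.05%), among them the cyclins Ccnb2 (-0.57 ± 0.14) and Ccna2 (-0.61 ± 0.21) and the replication factor Mcm3 (-0.75 ± 0.28). Top2a, the member with the highest mean, was at 1012, 674 and 849 RPM at D9 and at 848, 590 and 203 at D11, and overlapped (-0.84 ± 0.43). Without D11 replicate 3 Top2a was at -0.24, Ccna2 at -0.39 and Mcm3 at -0.41. In that setting 6 members were lower without overlap, against 14.8% of all genes. The 1 member higher without overlap, against 10.6% of all genes, was Birc5, which encodes survivin. It was at 103, 126 and 98.6 RPM against 133, 136 and 264 (0.63 ± 0.24, and 0.30 without D11 replicate 3). Of the 79 cytosolic ribosome genes 77 had a negative change, as did 8190 of all 15099 genes, with a median of -0.24 (-0.13 without D11 replicate 3) and 25 lower without overlap (against 11.3% of all genes), and 0 were called by either fit. Rpl4, their highest member, changed by -0.25 ± 0.15, and by -0.09 without D11 replicate 3.

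The markers that define germ cells were present in every library. Ddx4 (VASA) was at 328, 336 and 326 RPM at D9, at 279, 310 and 266 at D10 and at 354, 254 and 258 at D11 (-0.21 ± 0.14). Dazl was at 943, 898 and 995 RPM at D9 and 1166, 781 and 640 at D11 (-0.18 ± 0.20, and 0.02 without D11 replicate 3). The days overlapped for both. The identity list as a whole had a median of -0.07, and of 0.02 without D11 replicate 3. Its 1 member higher without overlap, of 9 tested, was Dppa3 (stella), a maternal protein as well as an early germ cell marker. That share, 11.1%, was close to the 10.6% of all genes. Dppa3 was at 260, 369 and 293 RPM at D9 and 504, 566 and 1369 at D11. Its log2 change was 1.26 ± 0.34 (adjusted p = 0.18 in the main test, 0.0054 in the 27-library fit), and 0.81 without D11 replicate 3.

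Epigenetic (DNA methylation) and transposon defence genes held some members with large changes in lists with medians of 0.21 and -0.13. Without D11 replicate 3 these medians were 0.08 and -0.09. Of 11 DNA methylation genes 3 were higher and 0 lower without overlap, against 10.6% and 11.3% of all genes. The 27-library fit called 4 of the 11 higher, against 5.92% of all genes. Uhrf1, the partner of the maintenance methyltransferase, was at 149, 154 and 129 RPM at D9 and at 272, 319 and 800 at D11 (1.51 ± 0.34). Its adjusted p was 0.12 in the main test and 0.00050 in the 27-library fit. Zfp57, which protects imprints, changed by 1.92 ± 0.56, and Kdm1b, which is needed to set maternal imprints, by 1.49 ± 0.50 with overlap and by 0.96 without D11 replicate 3. Of 20 transposon defence genes 3 were higher and 1 lower without overlap, against 10.6% and 11.3% of all genes, with a median of -0.13. The counts were 4 and 4 without D11 replicate 3, against 14.7% and 14.8%. Gtsf1, a piRNA pathway factor, was the largest of them at 2.59 ± 0.62, from 5.39, 21.1 and 9.58 RPM to 36.4, 55.6 and 153. The most abundant, Piwil2 and Gpat2, overlapped.

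Glycolysis genes had a median of -0.07 over 18 members, with 1 higher and 3 lower without overlap, and hypoxia response genes 0.17 over 26, with 3 higher and 1 lower, against 10.6% and 11.3% of all genes. Without D11 replicate 3 the glycolysis median was 0.07. In that setting 6 hypoxia response genes were higher and 1 lower without overlap, against 14.7% and 14.8% of all genes. Ldhb, a subunit of lactate dehydrogenase, was at 119, 249 and 162 RPM at D9 and 434, 617 and 1635 at D11 (2.17 ± 0.46, adjusted p = 0.10 and 0.00015 in the 2 fits). Vegfa, an oxygen-responsive gene, overlapped between the days (-0.15 ± 0.28, and 0.02 without D11 replicate 3). Cholesterol biosynthesis genes had a median of -0.19, with 5 of 23 lower without overlap (against 11.3% of all genes).

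The change was also divided into the step from D9 to D10 and that from D10 to D11. In the main test 0 genes were called in either step (0% each), with 512 higher and 318 lower at an unadjusted p below 0.05 for D10 against D9, and 455 and 484 for D11 against D10. With RPM rescaled by size factors (median of ratios) the latter split was 607 and 322. By edgeR 0 were called in each step, and by DESeq2 10 and 37. The 27-library fit called 104 higher (0.689%) and 36 lower (0.238%) at D10 against D9, and 185 (1.23%) and 63 (0.417%) at D11 against D10. For the 497 genes higher at D11 the median share of the log2 change present by D10 was 46%, and for the 140 lower genes 43.1%. D10 lay between D9 and D11 for 465 of the 497 and 124 of the 140. Since these genes were chosen for the gap between D9 and D11, a D10 mean within it was likely beforehand, and the shares are a description. Of all 15099 genes, 3723 had mean RPM that rose at each step and 3668 had mean RPM that fell at each step. For single genes the shares were uneven, as with Gdf9 (2.47 of 4.21 by D10) and Npm2 (1.56 of 4.77).

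A direct test of whether the 2 steps differed called 0 genes in the 9-library limma fit (0%), with 186 higher and 358 lower at an unadjusted p below 0.05, and 283 and 266 after rescaling. edgeR called 0 and DESeq2 1. The 27-library fit called 34, of which 23 (0.152%) had a later step below the earlier one and 11 (0.0729%) had it above. Among the 23 were the endothelial genes Tie1, Esam, Robo4 and Icam2, named after their values were seen, at means of 5.34, 4.66, 3.78 and 2.22 RPM at D10 and between 0.243 and 1.63 at D9 and D11. Of the 34 only Igfbp3, Stk40 and BC024978 reached a mean of 20 RPM on any day.

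The genes that differed most between the days also differed most within them. For the 497 genes higher at D11 the median SD was 0.327 at D9, 0.522 at D10 and 0.858 at D11. The libraries had a common order. D11 replicate 3 was the highest D11 library for 94.2% of these genes, against 35.1% of all genes, D10 replicate 3 for 75.1% against 37.5%, and D9 replicate 2 for 72.6% against 44.7%. Zona, maternal complex and Nobox followed this order, and for the 140 lower genes D11 replicate 3 was the lowest in 73.6% against 45.2% of all genes. These shares use the same libraries that chose the genes and are a description. The summed zona level was 11.3, 65.4 and 22.9 RPM at D9, 174, 90.4 and 352 at D10 and 520, 801 and 2689 at D11. The days did not overlap in this sum, although each day spread widely.

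**Figure D3:**
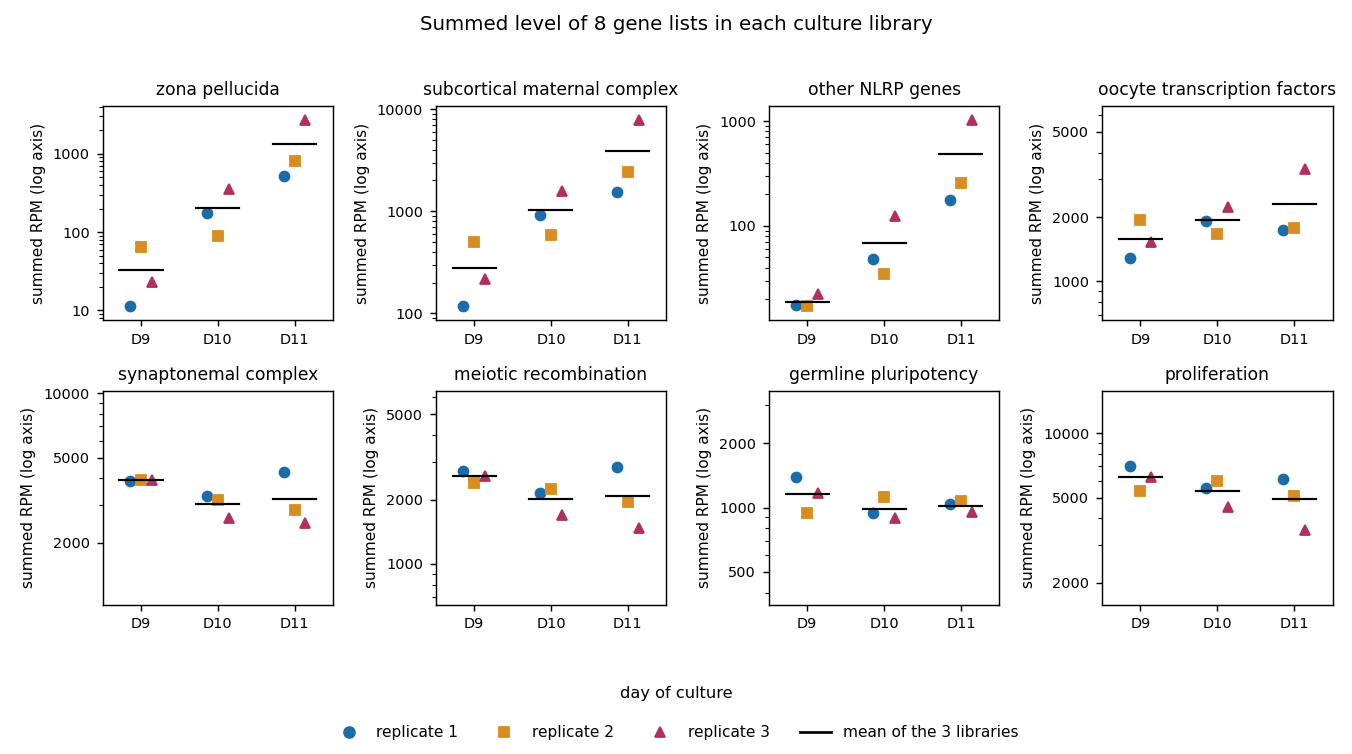
Summed RPM of 8 gene lists (log axis, scaled separately in each panel) in each culture library by day, with a symbol per replicate number and a bar at the mean. The zona sum climbs from 11.3 to 65.4 RPM at D9 to 520 to 2689 at D11 without overlap, the transcription factor sum overlaps between days, and D11 replicate 3 is the highest D11 library in the 4 upper panels and the lowest in the 4 lower ones.

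Markers of other ovarian cells were present in all 9 libraries. The median share of variance that lay between the days was 20.2% for granulosa, 28.9% for stroma and theca, 13.5% for blood and immune and 62.7% for endothelial markers, against 28.7% over all genes. In bulk samples fewer cells of a type and less RNA per cell cannot be told apart. The 24 granulosa markers summed to 447 to 724 RPM at D9, 635 to 929 at D10 and 480 to 904 at D11. Of 22 tested, 1 was higher and 0 were lower at D11 without overlap, against 10.6% and 11.3% of all genes. Amhr2, a receptor of granulosa cells, was at 51.2, 100 and 86.8 RPM at D9 and 90.3, 118 and 73.0 at D11, and Foxl2, their defining factor, at 5.49, 22.9 and 8.48 and at 17.8, 24.2 and 24.3. Fshr, which marks later granulosa cells, reached at most 0.506 RPM. The 14 stroma and theca markers summed to 276 to 500 RPM at D9, 783 to 1795 at D10, and 210, 1944 and 206 at D11. Blood and immune markers were at 569 RPM in D11 replicate 2 and at 37.7 to 125 in the other 8 libraries, with 2 hemoglobin genes, Hbb-bt and Hba-a1, at 0 reads throughout. Endothelial markers summed to 30.6 to 106 RPM.

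D11 replicate 2 thus carried the most stromal and immune marker RNA, and the immediate early genes were also highest there at D11 in 19 of 19 cases. D11 replicate 3, which was highest for the growth genes, had the lowest D11 sums of all 4 marker lists. Granulosa markers of E16.5 and E18.5 ovarian cells summed to 84.4 to 216 RPM. The part of these cells in the changes from D9 to D11 was not tested.

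**Figure D4:**
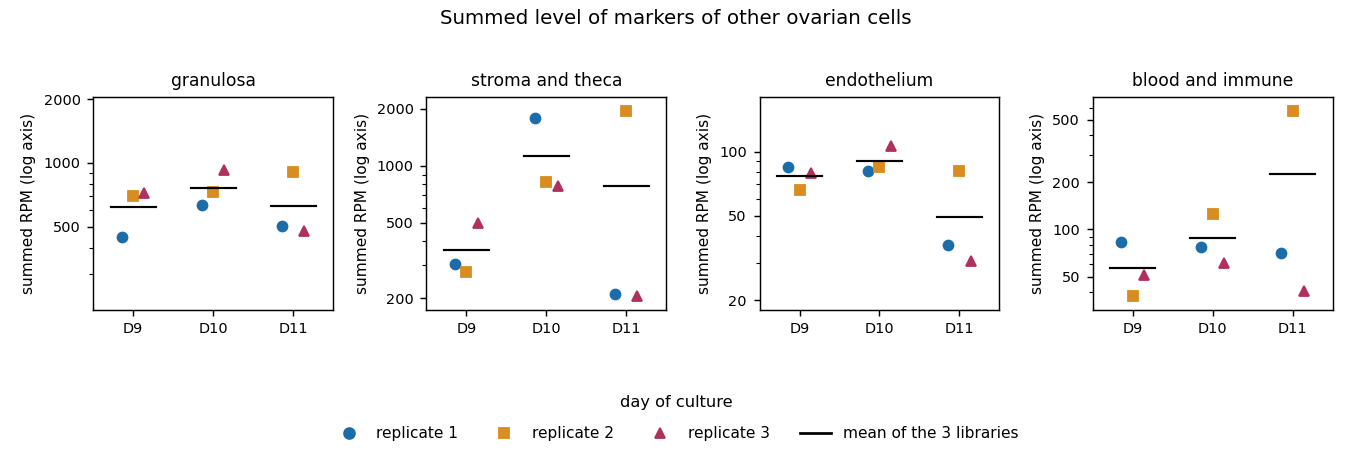
Summed RPM of markers of 4 other ovarian cell classes (log axis, scaled separately in each panel) in each culture library by day, with a symbol per replicate number and a bar at the mean. D11 replicate 2 (square) is the highest D11 library in all 4 panels, at 1944 RPM for stroma and theca and 569 RPM for blood and immune, and D11 replicate 3 (triangle) the lowest.

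In the ovary the matching interval was compared over E16.5 to E18.5, with a joint limma fit of the 12 libraries and 15431 genes. The ovarian change was broader, with 3012 genes higher at E18.5 (19.5%) and 4104 lower (26.6%). Its SD over genes was 0.92 on the log2 scale, against 0.55 for the culture change. Pearson's r between the 2 changes was 0.60 across genes, which are not independent replicates, and the 2 intervals share no library. Of the 497 genes higher at D11, 324 also rose and 2 fell in the ovary, with a median ovarian change of 1.43. Of the 140 lower genes, 84 also fell and 1 rose, with a median of -1.13.

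Padi6 was at 5.36, 7.42 and 3.77 RPM at E16.5 and at 288, 319 and 211 at E18.5, a log2 change of 5.41 against 6.06 in culture. The difference of 0.65 ± 0.84 had an adjusted p of 0.64. For Zp3 the difference was 1.87 ± 0.81 (adjusted p = 0.14) and for Nobox -0.38 ± 0.82 (0.79). These p-values do not show that the changes were the same, since each difference has a large SE. The D11 libraries were above the E18.5 libraries for Zp3 (133 to 741 RPM against 33.2 to 38.9), but not for Nobox (147 to 591 against 471 to 491).

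For meiotic genes the 2 settings were set side by side. Of the 22 recombination genes 16 were called lower at E18.5 than at E16.5, and of the 14 synaptonemal complex genes 9, against 26.6% of all genes. The medians were -0.67 and -1.01, against -0.12 over all genes. The test of the difference itself called 4 recombination genes and 1 synaptonemal complex gene, Hormad1, as less reduced in culture, against 7.06% of all genes called in that direction. It called 1 recombination gene in the other direction, against 5.9% of all genes. Dmc1 was among the 4, at 2.26 (adjusted p = 0.023), and Hormad1 was at 1.31 (0.017).

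**Figure D5:**
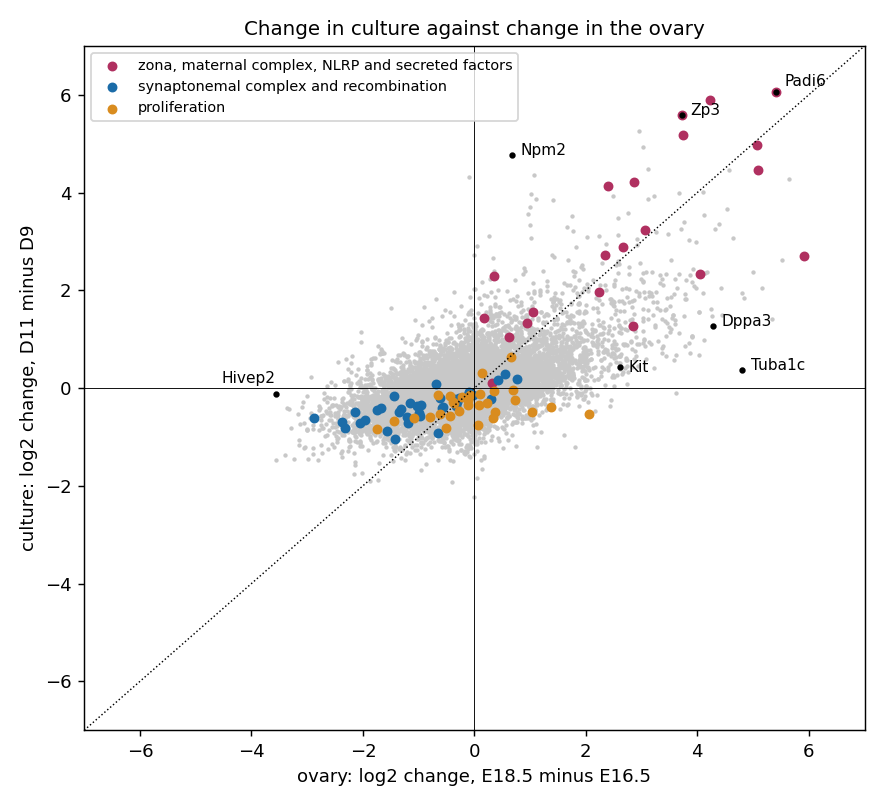
Log2 change in culture (D11 minus D9) against log2 change in the ovary (E18.5 minus E16.5) for 15431 genes, on log2(RPM + 1), with members of 3 groups of lists coloured and a dotted line where both changes are equal. Padi6 (5.41 in the ovary, 6.06 in culture) lies near the line, Kit, Dppa3 and Tuba1c lie below it and Npm2 and Hivep2 above it.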

How the data were processed

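Poly(A) RNA of the 9 culture libraries and of 6 ovarian libraries was analysed. The authors deposited 1 table of RPM values (reads per 1000000), which are not divided by gene length, so levels of different genes were not compared as amounts. Per the submitters' processing notes, TopHat2, Bowtie2 2.0.13, featureCounts 1.5.1, R 3.4.4 and mm10 were used, with no roles given, and whether counting used strand is not given in the sources used here. Low RPM values step by the worth of 1 read, and 100% came out whole within 0.01 read, which gave the depths. Intervals and floors of 3 reads cover counting error only, since PCR copies are not independent molecules.

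Genes with a mean of at least 1 RPM on any day were fitted with limma 3.58.1 (trend) in R 4.3.3 on log2(RPM + 1), two-sided, with Benjamini-Hochberg adjustment at 0.05. Fold changes on this scale understate low genes. The recovered reads were tested with edgeR 4.0.16 and DESeq2 1.42.0 as alternatives. Other alternatives were rescaled RPM, other pseudocounts and filters, array weights, a replicate block, the 27-library fit and each library left out. The counts without D11 replicate 3 of genes with no overlap were added after seeing the data.

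The members and gene lists were chosen with earlier results of these data known. The rule named the 10 largest changes in each direction among called genes with no overlap and a mean of at least 20 RPM, up to 3 called members of each list or else its 2 highest, and a panel of 23 genes. As 0 genes were called, the call was dropped from the rule, and other members were named after their values were seen. Some genes that the rule would name are not reported here.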

Additional observations from a re-analysis of the deposited data

Results flagged for a closer look

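The following differed between culture and ovary, by the test of the difference between the D11 minus D9 change and the E18.5 minus E16.5 change in the joint limma fit with Benjamini-Hochberg adjustment. In all, 2000 of 15431 genes differed, 1090 (7.06%) in the direction of culture and 910 (5.9%) in the direction of the ovary. The 8 genes with the largest differences and a group mean of at least 20 RPM are given, with 2 oocyte genes named above. After rescaling by size factors the split was 982 and 1115.

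Npm2, the egg chromatin protein, differed by 4.10 ± 0.63 (adjusted p = 0.0032). It was at 3.72, 5.83 and 2.56 RPM at E16.5 and at 8.19, 5.26 and 6.99 at E18.5, whereas all D11 libraries were at or above 41.1 RPM. Eif4e1b differed by 3.30 ± 0.67 (0.010), with 2.89, 2.51 and 1.07 RPM at E18.5. Both were therefore higher at D11 than in any E18.5 library, and their D13 means were 1745 RPM for Npm2 and 1290 for Eif4e1b.

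Hivep2 differed by 3.44 ± 0.59 (0.0052). It dropped by 3.56 on the log2 scale in the ovary, from 24.8 to 27.7 RPM to 0.345 to 2.75, and was at 12.8, 11.3 and 4.09 RPM at D11 against 11.9, 6.33 and 10.8 at D9. Abca8a, a transporter, differed by 2.98 ± 0.89 (0.045), with 36.2 to 51.5 RPM at E16.5. It missed the threshold in 12 alternative settings, among them without any single one of the E16.5, E18.5 or D9 libraries. It varied from 0.335 to 11.8 RPM within D11 and was highest in D11 replicate 2, the library with the most stromal marker RNA.

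In the other direction, Tuba1c, an alpha tubulin, differed by -4.41 ± 0.46 (0.00056). It was at 5.26, 1.44 and 2.76 RPM at E16.5 and at 103, 117 and 99.6 at E18.5, while D9 libraries already held 57.0 to 77.0 RPM. Mvp, the major vault protein, differed by -3.94 ± 0.67 (0.0049), Ccbl2 by -3.72 ± 0.34 (0.00056) and Sox15 by -3.35 ± 0.47 (0.0022). Their E16.5 libraries reached at most 10.2, 5.62 and 0.893 RPM, and in all 3 cases the D9 libraries were above every E16.5 library.

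Kit differed by -2.17 ± 0.44 (0.010), with 232 to 286 RPM at E16.5 and 1517 to 1621 at E18.5, against D9 and D11 libraries that overlapped. Every D9 library was already above every E16.5 library for Kit. Dppa3 differed by -3.02 ± 0.71 (0.019), with 18.9 to 90.5 RPM at E16.5 and 885 to 1217 at E18.5. Its D9 libraries, at 260 to 369 RPM, were already above E16.5. The culture cells had the Blimp1-mVenus reporter and another strain, while the ovarian cells carried stella-ECFP, a reporter named after Dppa3. Cell source, reporter, strain and culture therefore cannot be told apart in these comparisons.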

How the results depend on the processing

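The number of genes called for D11 against D9 differed between settings. It was 0 in the main test, and also 0 with rescaled RPM, a pseudocount of 0.5 or 5, no filter, a mean of at least 5 RPM or edgeR. It was 586 with DESeq2, 254 with limma array weights and 1204 in the fit of 27 libraries. Leaving out each library gave 0 to 145, with 0 in 7 of 9 cases, 8 without D10 replicate 3 and 145 without D11 replicate 1. D10 against D9 gave 10 with DESeq2 and 140 in the 27-library fit, D11 against D10 gave 37 and 248, and the difference of the 2 steps gave 1 and 34. For each of these 3 every library left out in turn gave 0. The comparison with the ovary called 2000 genes, 3113 with DESeq2, 4198 with array weights and 951 to 4603 with a library left out. The highest count came without D11 replicate 3. The others moved past 1.5 times were all lower and came without D9 replicate 1 (1109), 2 (1306) or 3 (953), E16.5 replicate 1 (1304) or 2 (970), or E18.5 replicate 1 (996) or 2 (951). The cause was not tested.

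Samples with the same replicate number share only a number. The correlation of their deviations from the day means ranged from -0.27 to 0.49, and with the number as a replicate block 71 genes (70 higher, 1 lower) were called for D11 against D9 and 0 for the other contrasts of the days. The comparison with the ovary gave 1392 under the block.

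Of 89 genes examined, 7 changed sign in at least 1 setting, all with a log2 change near 0. With array weights Foxo3 was at -0.06, Vegfa at 0.14 and Pou5f1 at -0.05. With a library left out Foxo3 ranged from -0.25 to 0.26, Sycp3 from -0.22 to 0.10, Dazl from -0.42 to 0.02, Figla from -0.17 to 0.79, Amhr2 from -0.02 to 0.46, Vegfa from -0.47 to 0.02 and Pou5f1 from -0.15 to 0.27. Among the 10 genes compared with the ovary, Abca8a missed the threshold in 12 settings and Dppa3 in 1, without E18.5 replicate 2.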
